A study of Bos taurus with 86 samples.

Results

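Whole bovine embryos labelled IVD were compared with embryos labelled AI, 14 embryos in each group, chosen by their labels from 43 single embryos in all. AI is read here as artificial insemination. The labels do not spell out IVD, so it serves as a group name only, and the sources used here give neither breed, dam, culture conditions nor developmental stage. By its title, the study asked what maturation, fertilization and culture outside the cow do to gene expression in single embryos. The remaining 15 embryos, labelled IVF, entered the statistical model so that all embryos shared an estimate of the spread. The RNA of every embryo was linearly amplified in 3 rounds and that of the common reference in 2 rounds, and each embryo was hybridised against the reference on 2 cDNA arrays with the dyes Cy3 and Cy5 exchanged. Every level below is a log2 ratio of embryo to reference, and every difference is the mean of IVD minus the mean of AI, so a difference of 1 is a change of 2-fold. Errors are standard errors (SE) unless stated.

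Which dye formed the numerator of the deposited ratios is not stated. Cy5 over Cy3 was taken as likely, because it put markers of trophectoderm, the outer epithelium of the blastocyst, above the reference in AI embryos (median level 2.48, 14 of 15 genes above 0) and markers of blood and immune cells below it (median -1.63, 0 of 4 genes above 0). The opposite reading would turn every sign. IVD embryos 12_1 to 12_4 share part of their number, and nothing says whether they or any other embryos share parents, so the p-values measure the spread between these embryos.

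A blastocyst consists of the trophectoderm, which pumps fluid into a cavity behind sealed cell junctions, and the inner cell mass, which forms the embryo proper and the primitive endoderm. Early cleavage runs mainly on pyruvate and amino acids, and glucose use and mitochondrial respiration increase as the blastocyst forms. Genes of cell division, energy metabolism, protein synthesis, stress defence and the first cell lineages were therefore described as groups.

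Of 6203 features tested (3433 named genes and 2770 clones without a single gene symbol), 2896 passed the limma test at a Benjamini-Hochberg adjusted p under 0.05, which is 46.7% of them. IVD embryos were higher for 1591 features (25.6%) and lower for 1305 (21%). Among named genes, 852 were higher and 806 lower. Counts of called genes in each list below are to be read against the 46.7% called over all features. The median size of a called difference was 0.602, so most were small, and 273 features were higher and 148 lower by more than 2-fold. The split by direction depended on how arrays were scaled. Of the calls, 54.9% were higher with arrays centred on their medians, 85.3% with the deposited values left uncentred (values as given below), 49.5% after quantile normalization, 65.2% on Cy3-embryo arrays alone and 45.6% on Cy5-embryo arrays alone. Leaving the arrays uncentred moved the median over all features from 0.06 to 0.32, so a list median given for that scaling below is to be read against 0.32. The directions of 2828 of the 2896 calls were alike on both dye orientations, as the plot of the differences by dye shows.

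**Figure D1:**
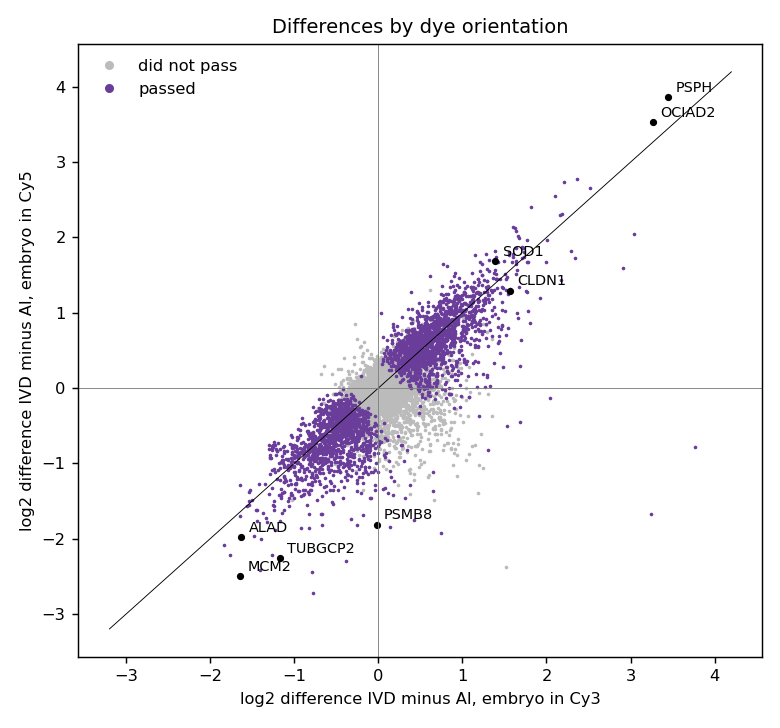
Log2 difference IVD minus AI of each of the 6203 features, from arrays with the embryo in Cy3 (horizontal axis) and in Cy5 (vertical axis). Purple points passed the test on both orientations averaged, grey points did not, the diagonal marks equal differences and 8 genes are named. Most called points lie along the diagonal, while PSMB8 is near 0 with Cy3 (-0.02) and at -1.81 with Cy5.

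The arrays of the groups differed in technical measures that moved with every comparison below. Per embryo, 1001.5 to 1871.5 rows had no value in IVD and 3613 to 5713 in AI (means of both arrays, of 16416 rows), with no overlap. Over all rows measured on both arrays of an embryo, these correlated at 0.589 to 0.767 in IVD and 0.816 to 0.912 in AI. Over the 5558 rows measured on every array the order turned, with 0.947 to 0.973 in IVD and 0.908 to 0.957 in AI. Their part in the results below was not tested, and the labels give neither slide nor day. Of cell types other than those of the embryo, blood and immune markers had 1 of 4 measured genes lower (CORO1A, -0.48 ± 0.11, which did not pass on Cy3 arrays alone or with the values as given), with embryo medians of -2.42 to -0.85 in AI and -2.30 to -1.37 in IVD. Cumulus and granulosa markers had 1 of 4 higher (the steroid enzyme CYP11A1, 0.40 ± 0.11, 0.11 on Cy5 arrays alone and not passing there), with embryo medians of -0.75 to 0.02 in AI and -0.41 to 0.17 in IVD. The oviduct list had 1 measured gene, CST6, which did not pass (-0.13 ± 0.16). In whole embryos, fewer cells of a type and less RNA per cell cannot be told apart.

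**Figure D2:**
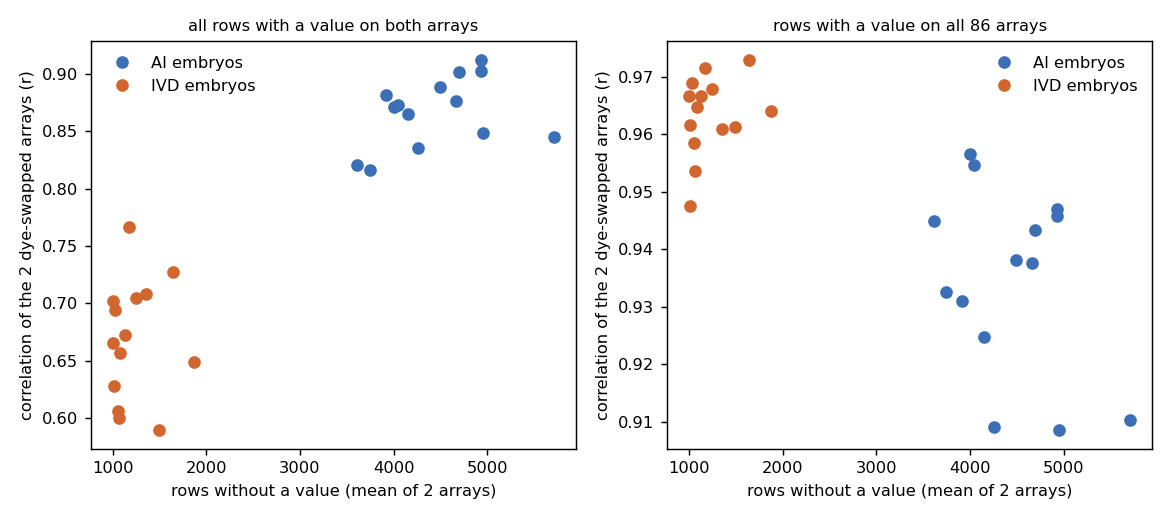
Correlation of each embryo's 2 dye-swapped arrays, with 1 turned in sign, against its number of rows without a value, over every row that both arrays measured (left) and over rows with a value on all 86 arrays (right). Each point is 1 of the 14 AI or 14 IVD embryos. IVD embryos lie to the left of all AI embryos, below them on the left panel and mostly above them on the right.

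The highest difference belonged to PSPH, the phosphatase that completes serine synthesis. Its level ran from -3.95 to -0.73 (median -2.76) in 14 AI embryos and from -0.08 to 1.83 (median 1.10) in 14 IVD embryos. No embryo of one group lay within the range of the other, and the difference was 3.65 ± 0.29 (adjusted p = 2.83e-13). OCIAD2, a mitochondrial and endosomal protein, ran from -5.38 to -2.01 (median -4.66) in 14 AI embryos and from -2.15 to 0.58 (median -0.44) in 14 IVD embryos. In IVD 13 of 14 embryos lay above all AI embryos, and the difference was 3.40 ± 0.40 (adjusted p = 3.49e-09).

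CLDN1, a tight junction claudin, ran from -3.77 to 0.64 (median -0.73) in 14 AI embryos and from -0.47 to 2.98 (median 1.06) in 14 IVD embryos on its kept rows and was higher by 2.60 ± 0.50 (adjusted p = 3.75e-05). The groups overlapped, with 11 IVD embryos above all AI embryos. The gene's other clone went the opposite way. Its duplicate spots had values in 5 and 7 AI embryos and in 6 and 4 IVF embryos and so were not kept, with mean levels of 2.40 and 1.91 in AI and 0.56 and 0.52 in IVD. With rows kept at 2 embryos per group CLDN1 was at 1.37, and with Cy3 or Cy5 arrays alone at 1.57 or 1.29, so its direction in these embryos depends on the clone.

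Other leading genes were higher in IVD with overlapping groups. FZD4, a Wnt receptor, was at 2.09 ± 0.35, HECA at 1.99 ± 0.33, and SH3BGR at 1.83 ± 0.25. The histamine receptor HRH1 (1.78 ± 0.33), GCFC2 (1.76 ± 0.31), HSPB8, a small heat shock protein (1.73 ± 0.33), and the potassium channel KCNK1 (1.72 ± 0.26) followed. DDIT4, a stress-induced inhibitor of mTOR, ran from -3.31 to -0.30 (median -1.96) in 14 AI embryos and from -1.40 to 0.52 (median -0.13) in 14 IVD embryos. Its groups overlapped, with 8 IVD embryos above all AI embryos, and its 2 tested clones gave differences of 1.58 to 1.64.

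**Figure D3:**
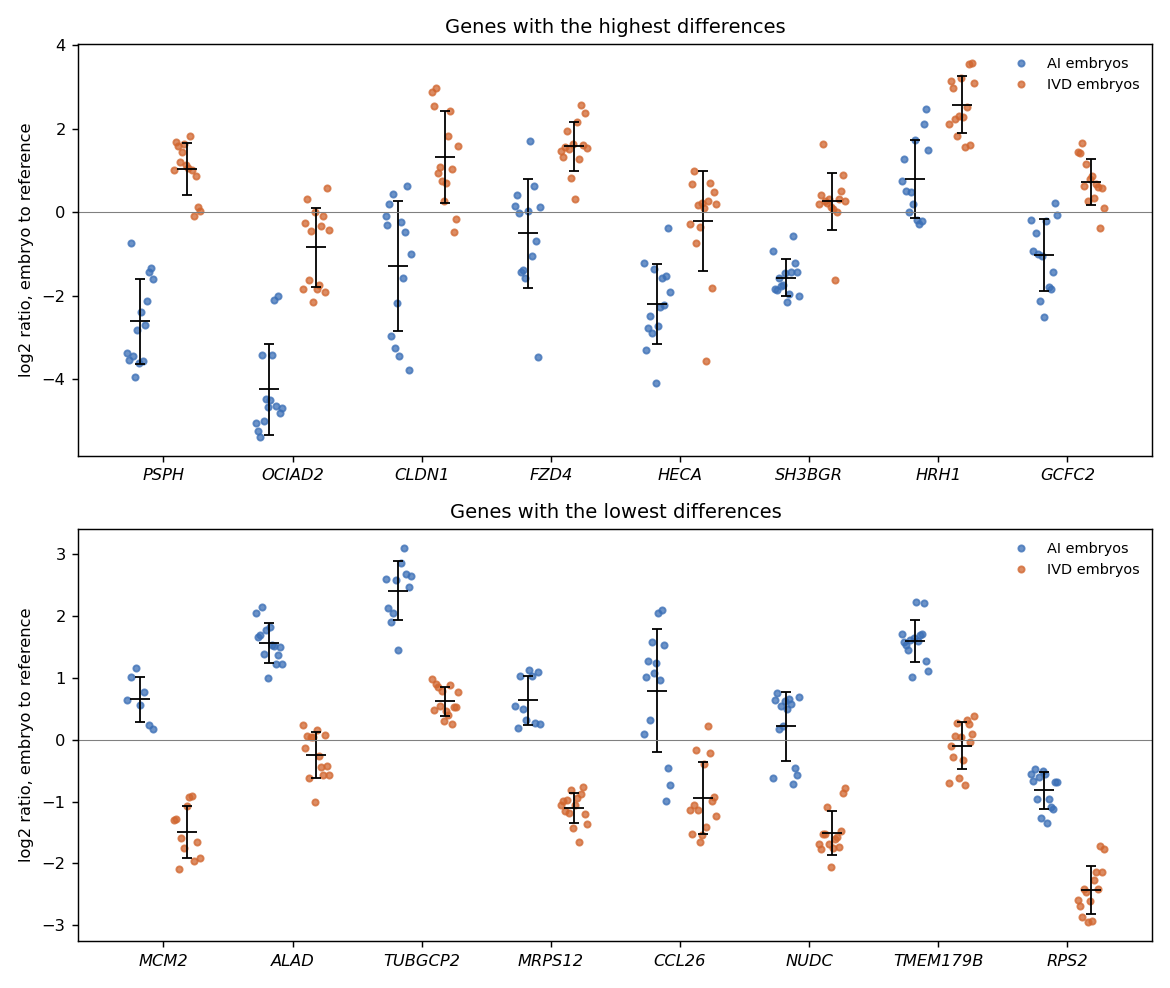
Level (log2 ratio of embryo to reference) of each AI embryo (blue) and IVD embryo (orange) for the 8 highest and the 8 lowest differences among genes with a full name. Horizontal marks are group means and bars are SD. PSPH, MCM2, ALAD, TUBGCP2, MRPS12, NUDC, TMEM179B and RPS2 show no overlap between the groups. CLDN1 shows only its kept clone, and MCM2 and MRPS12 only their kept spot.

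At the lower end stood MCM2, a subunit of the helicase that opens DNA for replication. It ran from 0.17 to 1.15 (median 0.64) in 7 AI embryos and from -2.08 to -0.91 (median -1.59) in 11 IVD embryos, and was measured in only 7 AI embryos and on 1 kept spot. The groups did not overlap, the difference was -2.15 ± 0.25 (adjusted p = 3.17e-08), and the duplicate spot that did not enter the test gave -1.98. ALAD, the second enzyme of haem synthesis, ran from 0.99 to 2.15 (median 1.52) in 14 AI embryos and from -1.01 to 0.24 (median -0.20) in 14 IVD embryos. Again no embryo overlapped, and the difference was -1.81 ± 0.15 (adjusted p = 5.8e-13). TUBGCP2, which nucleates microtubules as part of the gamma-tubulin ring, ran from 1.45 to 3.10 (median 2.58) in 11 AI embryos and from 0.25 to 0.99 (median 0.54) in 14 IVD embryos. Its groups did not overlap, with a difference of -1.79 ± 0.16 (adjusted p = 3.69e-11) that was -1.18 on Cy3 arrays alone.

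Others among the lowest were the mitochondrial ribosomal protein MRPS12 (-1.74 ± 0.15, from 1 spot in 10 AI and 14 IVD embryos), the chemokine CCL26 (-1.73 ± 0.28), NUDC, a dynein cofactor in mitosis (-1.72 ± 0.19), the membrane protein TMEM179B (-1.70 ± 0.16), ZFYVE21 (-1.54 ± 0.17) and the peptidase DPP3 (-1.53 ± 0.17). RPS2 of the small ribosomal subunit (-1.60 ± 0.15) and LOC783349 (-1.67 ± 0.13) ran side by side in level (AI medians -0.69 and -0.63, IVD medians -2.44 and -2.41). Whether their clones are copies of the same transcript was not tested.

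Complete separation of the groups was rarer than a call. It held for 176 features (2.84%), 68 with IVD higher (1.1%) and 108 with IVD lower (1.74%), and for 100 named genes (28 higher, 72 lower). The gap between the groups was widest for MCM2, MRPS12, ALAD and COL3A1, all lower in IVD. ALAD and COL3A1 had values in 14 AI and 14 IVD embryos, MCM2 in 7 and 11 and MRPS12 in 10 and 14. A gap can be wider where fewer embryos have a value. For MRPS12 the gap holds on its 1 kept spot only. The duplicate spot, which did not enter the test, ran from -1.28 to 2.16 in 6 AI embryos. In 13 IVD embryos it ran from -1.65 to -0.88, so there the groups overlapped. The spots of another MRPS12 clone had values in 12 and 9 IVD embryos, with means of -0.03 on both, beside -1.11 on the kept spot. That clone had no value in any AI embryo, so it gave no difference. Among genes described nowhere else here, which were picked after their values were seen, wide gaps were also found for SLC4A9, of a family of bicarbonate transporters, which was higher (1.46 ± 0.12), and for the actin regulator NCKIPSD (-1.20 ± 0.10), the matrix protein TNC (-1.47 ± 0.13) and the kinase-like STK40 (-1.45 ± 0.13), which were lower. TNC lay far below the reference in both groups (medians -4.82 in AI and -6.29 in IVD).

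Serine, glycine and one-carbon enzymes did not follow PSPH. Of 9 measured genes 1 was higher and 3 were lower (44.4% called), with a median of -0.12 (0.13 with the values as given), beside 0.06 for all features. GART of purine synthesis was at -1.01 ± 0.21 (-0.48 on Cy3 arrays alone), the folate enzyme MTHFD1 at -0.92 ± 0.17 and the mitochondrial serine hydroxymethyltransferase SHMT2 at -0.39 ± 0.13, which did not pass on Cy5 arrays alone or with the values as given. MTHFD2, its mitochondrial partner, did not pass (-0.12 ± 0.22).

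Of 5 measured haem genes 3 were lower and 1 was higher, with a median of -0.33 (-0.08 with the values as given). ALAD and ALAS1, the rate-limiting enzyme (-0.91 ± 0.13 (adjusted p = 4.99e-07)), were lower, while HMOX1, which opens the haem ring, was higher (1.32 ± 0.29 (adjusted p = 0.000292)). ALAS1 ran from -1.01 to 0.28 (median -0.37) in 14 AI embryos and from -1.79 to -0.68 (median -1.16) in 14 IVD embryos, and HMOX1 ran from -2.64 to -0.44 (median -2.19) in 14 AI embryos and from -2.01 to 0.42 (median -0.70) in 14 IVD embryos. The groups overlapped for both genes. BLVRB, a biliverdin reductase, was lower by less (-0.33 ± 0.13) and did not pass on Cy5 arrays alone, with the values as given, over rows measured on all arrays or on its most complete row, and the transporter SLC25A38 did not pass (0.13 ± 0.20).

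Of 11 measured replication genes 4 were lower and 0 higher (36.4% called, beside 46.7% of all features), with a median of -0.23 that was 0.03 with the values as given. Besides MCM2, the helicase subunits MCM4 (-0.73 ± 0.12) and MCM7 (-0.42 ± 0.14, not passing with the values as given) and the polymerase subunit POLE3 (-0.28 ± 0.12, not passing under 9 of 13 alternative settings) were called, whereas the sliding clamp PCNA did not pass (0.13 ± 0.14). Of 16 mitosis and spindle genes 6 were lower and 2 higher (50% called, near the share over all features), with a median of -0.28 that was 0.02 with the values as given and -0.05 over rows measured on all arrays. CDC20, which activates the anaphase-promoting complex, ran from 0.87 to 2.36 (median 1.88) in 14 AI embryos and from -0.02 to 1.10 (median 0.45) in 14 IVD embryos. The groups overlapped in part, with 13 of 14 IVD embryos below all AI embryos and a difference of -1.31 ± 0.13 (adjusted p = 1.21e-10). The kinase AURKB (-0.73 ± 0.12, -0.42 on Cy3 arrays alone), its partner CDCA8 (-0.42 ± 0.12, not passing on Cy3 arrays alone or with the values as given) and AURKAIP1 (-1.14 ± 0.22, -0.73 on Cy3 arrays alone) were lower, and the checkpoint protein BUB3 (0.59 ± 0.10) and the cytokinesis regulator ECT2 (0.69 ± 0.16) higher.

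The p53 and cell cycle arrest list had 7 of 9 measured genes higher and 1 lower (88.9% called). Its median was 0.58, and it kept its sign after quantile normalization (0.56) and on Cy3 (0.56) and Cy5 (0.54) arrays alone. With the values as given the list median was 0.83, but that scaling moved the median over all features up, from 0.06 to 0.32. A positive list median could not turn under such a shift. MDM2, the ubiquitin ligase that p53 induces and that degrades it, ran from -2.66 to 1.90 (median -1.65) in 14 AI embryos and from -0.89 to 2.04 (median 0.46) in 14 IVD embryos. The groups overlapped, 1 IVD embryo lay above all AI embryos, and the difference was 1.64 ± 0.32 (adjusted p = 4.82e-05). TP53INP1, a stress-induced cofactor (1.02 ± 0.22), the membrane protein PERP (0.65 ± 0.10), the antiproliferative BTG1 (0.59 ± 0.09), GADD45A (0.58 ± 0.14) and SESN1 (0.55 ± 0.15, not passing on Cy5 arrays alone) were higher. The cyclin-dependent kinase inhibitor CDKN1A was higher by less (0.37 ± 0.13) and did not pass with quantile normalization, on Cy3 arrays alone or without IVD embryos 12_1 to 12_4. GADD45B was lower (-0.33 ± 0.12), but it was -0.17 over rows measured on all arrays, -0.15 on its most complete row and -0.07 with the values as given, and passed in none of these, and SESN2 did not pass (0.31 ± 0.22).

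**Figure D4:**
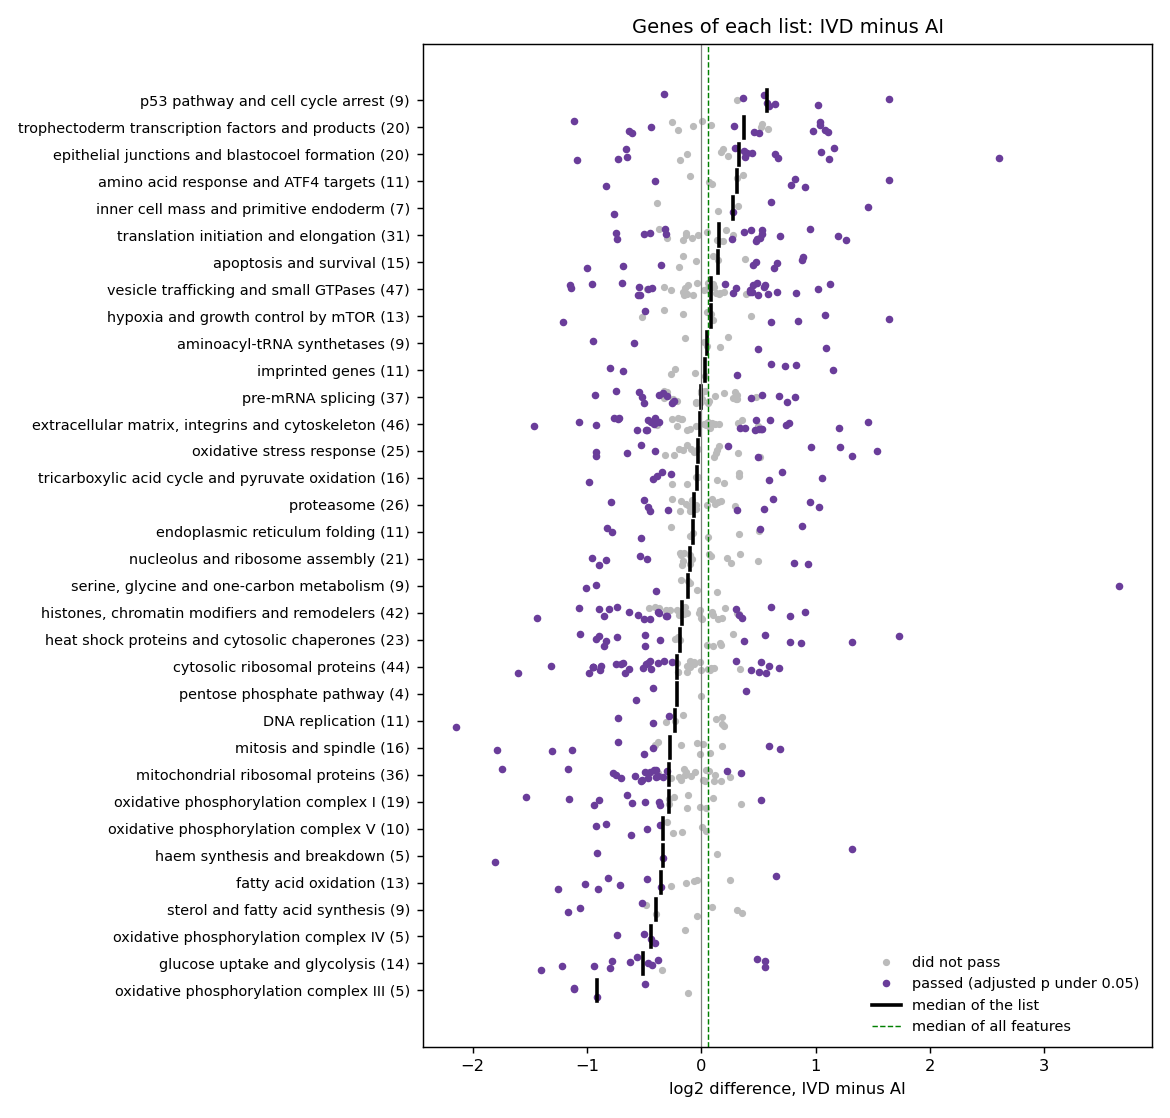
Log2 difference IVD minus AI of each measured gene in 34 lists with at least 4 measured genes, sorted by list median, with the number of measured genes in brackets. Purple points passed the test, grey points did not, black bars are list medians and the dashed line is the median of all features (0.06). The p53 list has the highest median (0.58) and complex III of the respiratory chain the lowest (-0.92), and with the values as given 17 of 41 list medians change sign.

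Subunits of the respiratory chain and ATP synthase were lower in IVD in every complex, though not in every subunit. Across 41 measured subunits 24 were lower and 1 was higher, with a median of -0.40 (-0.15 with the values as given). In complex I, which takes electrons from NADH, 9 of 19 were lower and 1 higher (52.6% called, near the share over all features). Its median was -0.28, and -0.03 with the values as given. The catalytic subunit NDUFV1 ran from 0.31 to 1.79 (median 1.22) in 14 AI embryos and from -0.69 to -0.07 (median -0.26) in 14 IVD embryos. The groups did not overlap, and the difference was -1.54 ± 0.14 (adjusted p = 3.39e-12). NDUFA10 (-1.16 ± 0.18), NDUFA7 (-0.93 ± 0.12) and NDUFS5 (-0.89 ± 0.14) were lower too, while NDUFA4, now counted with complex IV by many authors, was higher (0.52 ± 0.14, not passing on Cy5 arrays alone).

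Both measured subunits of complex II were lower, SDHA by -1.16 ± 0.17 and SDHD by -0.47 ± 0.14, the latter not passing with IVD embryos 12_1 to 12_4 left out. Complex III, which passes electrons to cytochrome c, had 4 of 5 subunits lower and a median of -0.92 (-0.66 with the values as given, -0.57 on Cy3 arrays alone, -0.61 on most complete rows). The median of the 2 subunits of complex II was -0.81 (-0.75 on Cy3 arrays alone, -0.81 on most complete rows). Embryo medians over these 5 genes ran from 0.01 to 0.80 in AI and from -1.17 to -0.39 in IVD, without overlap. UQCRQ was at -1.11 ± 0.13, UQCR11 at -0.92 ± 0.13 (-0.52 on Cy3 arrays alone) and UQCRC1 at -1.12 ± 0.10, whose 2 clones differed in size (-0.61 to -1.58 by row), and UQCRC2 did not pass (-0.12 ± 0.10). In complex IV 4 of 5 were lower (median -0.44, -0.18 with the values as given), led by COX8A (-0.74 ± 0.13). In complex V 5 of 10 were lower (50% called, near the share over all features), led by ATP5F1D (-0.92 ± 0.11). The median of complex V was -0.33, and -0.08 with the values as given. COX5B, COX7A2, COX4I1, UQCRH, SDHD, ATP5F1B and ATP5PD did not pass with the values as given.

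**Figure D5:**
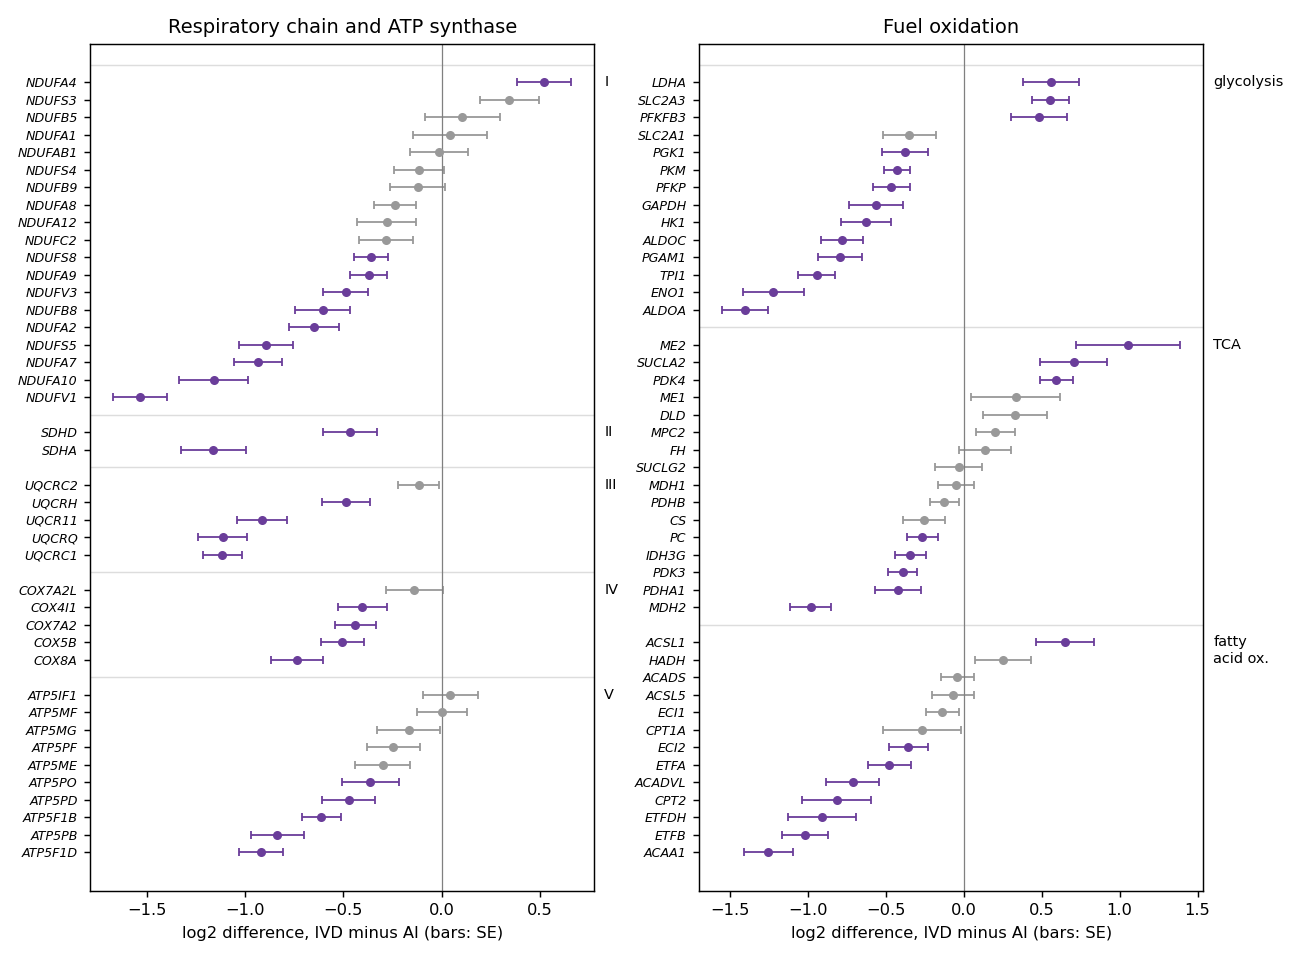
Log2 difference IVD minus AI with its SE (bars) for each measured subunit of complexes I to V (left) and for genes of glycolysis, the tricarboxylic acid (TCA) cycle and fatty acid oxidation (right). Purple points passed the test and grey points did not. NDUFV1 (-1.54) and ALDOA (-1.40) are the lowest points, and NDUFA4 (0.52), ME2 (1.05) and ACSL1 (0.65) are the highest of their lists.

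Enzymes of glycolysis were lower in 10 of 14 measured genes and higher in 3, with a median of -0.51 (-0.27 with the values as given, -0.71 after quantile normalization). ALDOA, which splits fructose bisphosphate, ran from -0.22 to 1.22 (median 0.77) in 14 AI embryos and from -1.29 to -0.23 (median -0.65) in 14 IVD embryos. The groups did not overlap, though they met closely, and the difference was -1.40 ± 0.15 (adjusted p = 2.43e-10). The enolase ENO1 (-1.22 ± 0.20), the isomerase TPI1 (-0.94 ± 0.12) and the mutase PGAM1 (-0.79 ± 0.14) were lower, and hexokinase HK1 was at -0.63 ± 0.16 but did not pass with the values as given. Higher were the glucose transporter SLC2A3 (0.55 ± 0.12), LDHA, which makes lactate (0.56 ± 0.18), and PFKFB3, which makes an activator of phosphofructokinase (0.48 ± 0.18), the last not passing with quantile normalization, on Cy3 arrays alone or on its most complete row, where it was 0.20. The transporter SLC2A1 did not pass (-0.35 ± 0.17), but it passed at -0.51 on Cy3 arrays alone and in 4 other settings (-0.35 to -0.42). GAPDH, often used to normalise embryo data, was at -0.56 ± 0.17 and did not pass on Cy5 arrays alone or with the values as given.

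The tricarboxylic acid cycle was split, with 3 of 16 genes higher, 5 lower (50% called) and a median of -0.04 (0.22 with the values as given). The mitochondrial malate dehydrogenase MDH2 (-0.98 ± 0.13) was lower, as was PDHA1, a subunit of pyruvate dehydrogenase (-0.42 ± 0.15), which did not pass with the values as given, on Cy3 arrays alone or on its most complete row. Higher were the malic enzyme ME2 (1.05 ± 0.33), SUCLA2 (0.70 ± 0.22) and PDK4, which switches off pyruvate dehydrogenase (0.59 ± 0.11). In fatty acid oxidation 7 of 13 were lower and 1 higher, with a median of -0.35 (-0.10 with the values as given). ACAA1 of peroxisomes (-1.25 ± 0.16), the electron transfer flavoprotein ETFB (-1.02 ± 0.15) and its oxidoreductase ETFDH (-0.91 ± 0.22) led the lower ones, CPT2 (-0.81 ± 0.22) followed but did not pass with the values as given, and ACSL1, which activates fatty acids, was higher (0.65 ± 0.19). Sterol and fatty acid synthesis had 3 of 9 lower and 0 higher (33.3% called, median -0.40, -0.14 with the values as given), among them EBP (-1.17 ± 0.22) and FDPS (-1.06 ± 0.24) of the cholesterol pathway. Of 4 pentose phosphate genes PGLS (-0.57 ± 0.14) and TKT (-0.42 ± 0.15) were lower, neither passing with the values as given nor TKT on Cy5 arrays alone, and RPIA was higher (0.39 ± 0.12).

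Genes of protein synthesis were described by role. Cytosolic ribosomal proteins had 21 of 44 genes lower and 7 higher, with a median of -0.21 that turned to 0.04 with the values as given. RPS2 ran from -1.35 to -0.48 (median -0.69) in 14 AI embryos and from -2.95 to -1.72 (median -2.44) in 14 IVD embryos. Its groups did not overlap, and RPL18 (-1.32 ± 0.14), RPL10 (-0.99 ± 0.16) and RPS3 (-0.95 ± 0.12) were lower as well, while RPS27 (0.43 ± 0.11), RPL32 (0.59 ± 0.12) and RPS9 (0.67 ± 0.20, not passing with quantile normalization or without IVD embryos 12_1 to 12_4) were higher. Ribosomal protein genes have many near-identical pseudogene copies, and cross-hybridisation of the clones was not tested. Mitochondrial ribosomal proteins had 17 of 36 lower and 2 higher (52.8% called, median -0.28, -0.03 with the values as given), with MRPL43 (-1.16 ± 0.18) next after MRPS12.

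Initiation and elongation factors had 12 of 31 genes higher and 6 lower, with a median of 0.16 (0.41 with the values as given). The helicase EIF4A2 was at 1.26 ± 0.22, the scaffold subunit EIF3A at 1.20 ± 0.16, the elongation kinase EEF2K at 0.95 ± 0.19 and EIF4B at 0.69 ± 0.13. Subunits of the same initiation complex differed in sign, since EIF3L (-0.74 ± 0.10) and EIF3I (-0.32 ± 0.07, not passing with the values as given) were lower and EIF3A, EIF3E (0.48 ± 0.16) and EIF3M (0.53 ± 0.20, not passing on Cy3 arrays alone) were higher. Of 9 aminoacyl-tRNA synthetases and their scaffolds 2 were higher, led by YARS1 (1.09 ± 0.21), and 2 lower, led by AIMP2 (-0.95 ± 0.15), with 44.4% called.

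Stress genes did not form a single pattern. Of 11 genes of the amino acid response and its factor ATF4, 4 were higher and 2 lower (54.5% called), with a median of 0.31 (0.54 with the values as given). ATF4 itself was higher (0.82 ± 0.19), as were the kinase EIF2AK4, which senses uncharged tRNA (0.78 ± 0.20), and ATF3 (0.91 ± 0.24), whose 3 clones ranged from 0.11 to 1.52 and which did not pass on Cy5 arrays alone. PPP1R15A, which ends the translation block of this response (-0.83 ± 0.12), and NUPR1 (-0.40 ± 0.10, not passing with the values as given) were lower, and DDIT3, its apoptotic factor, did not pass (0.37 ± 0.18) except with the values as given (0.62). In the list of hypoxia and mTOR, 4 of 13 were higher and 2 lower (46.2% called, median 0.08, -0.20 on Cy5 arrays alone). The oxygen-regulated factor HIF1A (1.08 ± 0.23) and the mTOR target RPS6KB1 (0.61 ± 0.14) were above and the kinase AKT1 below (-1.21 ± 0.15, -0.67 on Cy3 arrays alone). The HIF target VEGFA did not pass (0.08 ± 0.15) except on Cy3 arrays alone (0.41).

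In the oxidative stress list 6 of 25 genes were higher and 5 lower (44% called), with a median of -0.03 (0.23 with the values as given). Pairs of enzymes from cytosol and mitochondria were set side by side after their values were seen. SOD1, the superoxide dismutase of the cytosol, ran from -2.74 to -1.69 (median -2.15) in 14 AI embryos and from -1.77 to 0.50 (median -0.64) in 14 IVD embryos. The groups overlapped narrowly, and the difference was 1.54 ± 0.19 (adjusted p = 1.39e-08), whereas SOD2 of mitochondria was lower (-0.92 ± 0.17). Thioredoxin of the cytosol, TXN, was higher (1.21 ± 0.16) and that of mitochondria, TXN2, lower (-0.92 ± 0.18). KEAP1, the sensor that holds back NRF2, was higher (0.96 ± 0.11), and NFE2L2, which encodes NRF2, did not pass (-0.07 ± 0.15). PRDX2, which acts mainly in the cytosol, was lower (-0.65 ± 0.11, not passing with the values as given), and so was the glutathione peroxidase GPX1 (-0.52 ± 0.11, not passing on Cy3 arrays alone or with the values as given). The cytosolic members thus went both ways.

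Of 23 heat shock proteins and chaperones 6 were higher and 9 lower (median -0.19, 0.14 with the values as given). The stress-inducible HSP90AA1 (-1.06 ± 0.15), the chaperonin subunit CCT3 (-0.92 ± 0.10) and the mitochondrial chaperones TRAP1 (-0.85 ± 0.13) and HSPE1 (-0.83 ± 0.15) were lower. HSPB8, HSPA4 (0.87 ± 0.14) and HSF1, the heat shock transcription factor (0.77 ± 0.11), were higher. The cochaperone BAG2 was called higher (1.32 ± 0.31, 8 AI and 9 IVD embryos), but its dye orientations opposed each other, with 3.77 on Cy3 arrays alone and -0.79 on Cy5 arrays alone, so it has no settled direction. In the endoplasmic reticulum folding list 2 of 11 were higher and 3 lower (45.5% called, median -0.07, 0.18 with the values as given). The disulfide isomerases PDIA6 (-0.83 ± 0.13) and P4HB (-0.78 ± 0.13) were below and the cochaperone DNAJC3 (0.88 ± 0.18) above.

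Trophectoderm transcription factors and products were higher in 8 of 20 measured genes and lower in 4, with a median of 0.37. That median was -0.01 on Cy5 arrays alone, 0.21 with quantile normalization and 0.12 without IVD embryos 12_1 to 12_4. The trophectoderm markers used above for the direction of the ratio had 5 of 15 genes higher and 5 lower, with a median of -0.07. SFN, an epithelial 14-3-3 protein (1.08 ± 0.15), and TKDP4, a secreted ruminant trophoblast inhibitor (1.11 ± 0.28, 0.71 without IVD embryos 12_1 to 12_4), were higher. The factor TFAP2C was at 1.04 ± 0.17, but 1 clone gave 0.32 to 0.39 and the other 1.85 to 2.00, and the row measured in most embryos did not pass. GATA3, needed for trophoblast identity, was at 0.98 ± 0.18 (0.58 with quantile normalization, 0.45 and not passing as a plain mean of rows). Its clones differed in level and size. 1 clone gave 0.57 to 0.73 with AI means of -0.79 and -0.63, and the other 1.21 to 1.40 with AI means of 4.57 and 4.46. The prostaglandin synthase PTGS2 was at 1.03 ± 0.14 (0.26 and not passing with quantile normalization). TFAP2A (-0.63 ± 0.20, not passing with the values as given) and SSLP1, a secreted trophoblast protein (-1.12 ± 0.35), were lower. The endocytic adaptor DAB2 was lower as well (-0.61 ± 0.25) but did not pass with the values as given, on Cy3 arrays alone or on its most complete row.

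Of the keratins of simple epithelia, KRT8 ran from 1.39 to 2.40 (median 1.94) in 14 AI embryos and from 0.20 to 1.76 (median 1.07) in 14 IVD embryos. The groups overlapped, with a difference of -0.81 ± 0.15 (adjusted p = 1.44e-05), and KRT19 was lower too (-0.66 ± 0.18, not passing with the values as given) while KRT18, the partner of KRT8 in filaments, did not pass (-0.22 ± 0.12) except with quantile normalization (-0.45), with IVD embryos 12_1 to 12_4 averaged or left out (-0.31 and -0.36) and under the replicate block (-0.50). Junction and blastocoel genes were higher in 11 of 20 and lower in 4, with a median of 0.33 (0.59 with the values as given, 0.20 after quantile normalization). E-cadherin, CDH1, ran from 4.08 to 4.63 (median 4.28) in 14 AI embryos and from 5.18 to 5.78 (median 5.40) in 14 IVD embryos. The groups did not overlap, and the difference was 1.16 ± 0.12 (adjusted p = 7.52e-11), falling in size to 0.50 with quantile normalization. EPCAM, an epithelial adhesion protein (1.05 ± 0.13), the polarity kinase PRKCI (1.11 ± 0.22) and the gap junction protein GJB5 (0.67 ± 0.13) were higher. Claudins did not move together, as CLDN7 (-0.73 ± 0.11) and CLDN4 (-0.66 ± 0.13, not passing with the values as given) were lower, CLDN6 did not pass (-0.13 ± 0.11) except with quantile normalization (-0.50) and on Cy5 arrays alone (-0.36), and CLDN1 differed between clones. ATP1B3 of the sodium pump, which drives fluid into the cavity, was lower (-0.65 ± 0.13, -0.34 on Cy3 arrays alone and not passing with the values as given), and the water channel AQP3 did not pass (0.18 ± 0.13) but passed at -0.32 with quantile normalization, 0.43 with the values as given and 0.32 on Cy3 arrays alone.

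Of 7 measured genes of the inner cell mass and primitive endoderm, 3 were higher and 1 lower (median 0.28, 0.53 with the values as given). The laminin chain LAMB1, of the basement membrane that primitive endoderm secretes, ran from -2.58 to -1.13 (median -2.14) in 14 AI embryos and from -1.14 to 0.09 (median -0.53) in 14 IVD embryos. The ranges overlapped slightly, and the difference was 1.46 ± 0.16 (adjusted p = 6.15e-10), while its basement membrane partner COL4A1 was lower (-0.77 ± 0.15, -0.50 on Cy3 arrays alone and -1.18 on its most complete row). The factor KLF4 was at 0.61 ± 0.18 and SALL4 of pluripotent cells at 0.28 ± 0.11, which turned to -0.14 on its most complete row and to -0.18 over rows measured on all arrays, and did not pass with quantile normalization or as a plain mean of rows. With 1 measured marker of the fixed inner cell mass set, SALL4, the share of these cells in the embryos could not be described.

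Matrix and cytoskeleton genes were divided, with 12 of 46 higher, 14 lower (56.5% called) and a median of -0.01 (0.28 with the values as given). COL3A1, a fibrillar collagen, ran from -5.66 to -4.95 (median -5.19) in 14 AI embryos and from -7.09 to -6.38 (median -6.64) in 14 IVD embryos. Its groups did not overlap, with a difference of -1.46 ± 0.11 (adjusted p = 1.34e-13) between levels that both lay far below the reference. Vimentin, VIM, a filament of mesenchymal cells, was likewise far below it in both groups and lower in IVD (-1.07 ± 0.08). TUBB4B (-0.92 ± 0.16), FLNA (-0.73 ± 0.14) and TMSB10 (-0.72 ± 0.14) were lower, and the tropomyosin TPM1 (1.21 ± 0.18), TMSB4X (0.77 ± 0.18) and the integrin ITGB1 (0.74 ± 0.14) higher.

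Chromatin genes had 14 of 42 lower and 6 higher (47.6% called, near the 46.7% of all features). Their median was -0.17, and 0.08 with the values as given. TRIM28, a corepressor that silences transposons and guards imprints, ran from 0.19 to 1.45 (median 0.80) in 14 AI embryos and from -1.18 to -0.02 (median -0.70) in 14 IVD embryos. The groups did not overlap, and the difference was -1.43 ± 0.13 (adjusted p = 1e-11). SSRP1 of the FACT complex (-1.07 ± 0.14), the acetyltransferase KAT8 (-0.89 ± 0.17), the methyltransferase PRMT1 (-0.86 ± 0.13) and the deacetylase HDAC1 (-0.81 ± 0.12) were lower. The remodelers CHD4 (0.91 ± 0.14), SMARCA5 (0.61 ± 0.16) and SMARCE1 (0.77 ± 0.24, not passing without IVD embryos 12_1 to 12_4) were higher, and CHD3, a paralog of CHD4, was lower (-0.74 ± 0.12, -0.39 on Cy3 arrays alone).

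IVF embryos were not compared with IVD here, and their median levels are given for the 6 highest and the 6 lowest differences in order of size. Among the highest, AI, IVF and IVD medians were -2.76, -1.92 and 1.10 for PSPH, -4.66, -1.91 and -0.44 for OCIAD2, -0.73, -0.54 and 1.06 for CLDN1 and -0.02, 1.52 and 1.55 for FZD4. For HECA they were -2.25, -1.55 and 0.19 and for SH3BGR -1.65, -1.81 and 0.27. IVF lay between AI and IVD for 5 of these 6 genes and below both for SH3BGR. Among the lowest they were 0.64, 0.60 and -1.59 for MCM2, 1.52, 0.58 and -0.20 for ALAD, 2.58, 2.11 and 0.54 for TUBGCP2 and 0.52, 0.28 and -1.05 for MRPS12. For CCL26 they were 1.04, -0.14 and -1.09 and for NUDC 0.52, -1.24 and -1.59. IVF lay between AI and IVD for all 6, with MCM2 close to AI and NUDC close to IVD. The genes of both sets were picked for extreme differences between AI and IVD, which by itself favours IVF medians between them. Whether IVF lay between more often than over all features was not tested. The counts are therefore not read as an intermediate state of IVF embryos.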

How the data were processed

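Single bovine embryos (43, on 86 arrays) were measured on 2-colour cDNA arrays. The deposited values are log2 ratios of the dye channels in a table of 16416 rows, from a reference design with dye swap per the labels. The sources used here do not give image analysis, background correction, normalization or the rule for leaving spots empty, and 20.1% of the table's cells held no value. Array medians ran from -2.22 to 1.06, so each array was set to a median of 0 over the 5558 rows measured everywhere. The sign was turned where the embryo was labelled with Cy3, and an embryo's value is the mean of its 2 arrays. Rows with at least 7 embryos in every group were kept (10757), and rows of a gene symbol, or of a clone, were joined by an additive fit of row and embryo. Symbols came from the platform's annotation (11196 rows with 1 symbol, 190 with several, 5030 not listed), and 11182 of those rows matched RefSeq's gene table for ARS-UCD2.0.

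Group means of all 43 embryos were fitted with limma 3.58.1 in R 4.3.3, two-sided, with Benjamini-Hochberg adjustment over 6203 features and a threshold of 0.05. On simulated data the fit recovered 89 of 100 features changed by 1 and 56 of 100 changed by 0.5 (log2), with 6 false calls among the features left unchanged. The requirement for differences of 1 was eased after that result. Simulated features varied independently, few were changed, and no technical difference between dyes, arrays or groups was put in. The 6 false calls therefore do not measure false calls in the real comparison. The number of arrays limits the precision. Named genes are the 12 highest and 12 lowest called differences with the same sign on both dyes and in every kept row, and up to 4 members of each of 41 gene lists under the same conditions. Further list members, including some that fail a condition, were named after their values were seen. Groups, lists and rules were chosen with earlier results of these data known. Alternatives covered centring, quantile normalization, dye orientation, filters, the joining of rows, the embryos in the fit and the embryo number as a block. Deviations of same-numbered AI and IVD embryos correlated at -0.1298 to 0.0690, so the numbers were not taken as pairs.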

Additional observations from a re-analysis of the deposited data

Results flagged for a closer look

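Some rows left out of the test had values mainly in IVD embryos. In 2068 rows at least 12 IVD embryos but at most 2 AI embryos had a value on both arrays, whereas 26 rows showed the reverse. The median number of IVF embryos with a value in those 2068 rows was 1. Of these rows 1251 have 1 gene symbol, for 717 symbols, and 211 of the symbols were also tested through another row. In all, 5659 rows did not enter the test. Fewer than 7 AI embryos had a value in 5326 rows, and fewer than 7 IVD embryos in 1201. Why the values are missing was not tested, so having a value is not read as expression.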

How the results depend on the processing

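With the values as given 2388 features were higher and 413 lower. The 1591 features called higher all kept call and sign there, against 413 of the 1305 called lower. That scaling moved the median over all features from 0.06 to 0.32, which lifts higher calls and brings lower calls towards 0. The unequal shares are therefore not read as a difference in stability. Over rows measured on all arrays 3496 features were tested and 1754 passed, 977 higher and 777 lower. With the embryo number as a replicate block 2101 passed (1175 higher, 926 lower), and 1910 of the 2896 calls kept call and sign. The labels do not say whether the numbers pair embryos. Deviations of same-numbered AI and IVD embryos correlated at -0.1298 to 0.0690, and numbers of IVF embryos were not checked. In the other settings 2636 to 3070 features passed, the lowest count being that without IVD embryos 12_1 to 12_4. Of 190 called genes given with a difference here, above or below, 138 kept call and sign in every alternative setting in which they could be fitted, of 13. The other 52 did not in at least 1. Of these genes 27 lost their call with the values as given, 26 under the block, 10 on Cy3 arrays alone and 10 on Cy5 arrays alone. BAG2 turned to -0.79 on Cy5 arrays alone, and SALL4 to -0.18 over rows measured on all arrays and to -0.14 on its most complete row. AQP3, not called, passed at -0.32 with quantile normalization and at 0.43 with the values as given. Of 16 genes given as not passing, 8 passed in some setting. A gene passing in neither of the fits compared was counted as unchanged whatever its sign. Of 532 list medians recomputed, 46 moved by more than the spread between embryos, and with the values as given 17 of 41 changed sign. These 17 list medians were all below 0 in the main fit and moved up with the median over all features. The cause of the other changes was not tested. MCM2, AKT1 and MRPS12 rest on 7, 10 and 10 AI embryos, and EIF3A and AURKAIP1 on 9 AI and 11 IVD embryos each. GART lacks values in several IVD embryos, and other named genes also lack some values. Features with few AI values could not be tested.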

Other observations

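Gene groups outside the comparisons above also held called members. Among 26 proteasome genes 5 were higher and 5 lower (38.5% called), with a median of -0.06 (0.19 with the values as given). The inducible catalytic subunits PSMB8 (-0.79 ± 0.20), PSMB10 (-0.50 ± 0.11) and PSMB9 (-0.47 ± 0.17) of the immunoproteasome were lower. None of the 3 held under every setting, since PSMB10 and PSMB9 did not pass with the values as given, PSMB9 neither on Cy3 arrays alone nor with IVD embryos 12_1 to 12_4 averaged or left out, and PSMB8 was -0.02 on Cy3 arrays alone and -1.81 on Cy5 arrays alone. The constitutive subunit PSMB5 did not pass (-0.18 ± 0.18), and the core subunit PSMA4 (1.03 ± 0.16) and the activator PSME4 (0.95 ± 0.17) were higher. PSME1, of another activator, was lower (-0.45 ± 0.19) but did not pass in 8 of 13 alternative settings. Vesicle trafficking had 16 of 47 genes higher and 9 lower (53.2% called, median 0.09). RAB11A of recycling endosomes (1.02 ± 0.11) and the endosomal fusion protein STX7 (1.13 ± 0.17) were above. ARF1 (-1.14 ± 0.12) and SEC13 (-1.15 ± 0.12) of the coats between endoplasmic reticulum and Golgi were below. The ranges of RAB11A, ARF1 and SEC13 did not overlap between the groups.

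Of 11 imprinted genes, which are expressed from the allele of one parent, 5 were higher and 2 lower (median 0.03). NAP1L5 was at 1.15 ± 0.20, MEST at 0.83 ± 0.17 and H19 at 0.61 ± 0.11, GNAS was lower (-0.80 ± 0.16, not passing with the values as given), PLAGL1 was at 0.74 ± 0.21 but did not pass with quantile normalization, and IGF2 (-0.23 ± 0.12) and IGF2R (-0.27 ± 0.12) did not pass. IGF2R passed at -0.65 on its most complete row, -0.64 over rows measured on all arrays, -0.41 on Cy5 arrays alone and with only IVD and AI embryos fitted. IGF2 passed at -0.40 with quantile normalization and at -0.32 both on Cy3 arrays alone and as a plain mean of rows. Of 15 apoptosis genes 6 were higher and 3 lower (median 0.15), with the survival factor MCL1 (0.66 ± 0.13) and PDCD6 (0.88 ± 0.12) above and AIFM1 (-1.0 ± 0.20) and CASP6 (-0.69 ± 0.10) below. The caspase inhibitor CFLAR was at 0.89 ± 0.15, with 1 clone at 0.01 to 0.08 and the other at 1.68 to 1.78. Splicing had 5 of 37 higher and 10 lower (40.5% called, median -0.01, 0.25 with the values as given). The nucleolus had 2 of 21 higher and 5 lower (33.3% called, median -0.10, 0.15 with the values as given), with UTP11 (0.94 ± 0.10) above and DKC1 (-0.89 ± 0.13) and NOP16 (-0.83 ± 0.11) below.

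Differences varied with the level of a feature. Features were put in 10 bins of about equal size by their level in IVF embryos, which are in neither group compared. The median difference was 0.17 in the lowest bin and 0.19 in the highest, and -0.04 to 0.10 in the others. With quantile normalization the values of the lowest and highest bins were -0.04 and 0.06.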
